A study of Mus musculus with 18 samples.

Results

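Foxa1, Foxa2, Sox17, Hhex, Gsc and Trh were followed as a set named for the definitive endoderm and the node. The samples were mouse embryoid bodies, aggregates of embryonic stem cells that differentiate in suspension. They were chosen by symbol: every probe set annotated to exactly 1 gene, that gene being 1 of the 6, was taken. This gave 7 of the 34945 probe sets with 1 gene symbol, 1 for each gene except Sox17, which had 2. All 7 were among the 25881 probe sets that passed the filter on dim signals, and each reached the filter level in all 6 groups. The cells were A2lox-Flag-Msgn1 embryonic stem cells of strain 129P2, in which doxycycline switches on a Flag-tagged Msgn1, a presomitic mesoderm factor of the basic helix-loop-helix class. Induced embryoid bodies received 1 µg/ml doxycycline after 2 days of differentiation and were collected 12, 24 and 48 h later; uninduced embryoid bodies of the same line, cassette included, were collected at the same times without it. Each of the 6 groups had 3 arrays, which the labels call biological replicates. No group received doxycycline without the cassette, a single engineered line was used, and the stem cells had been grown on mitomycin-treated mouse embryonic fibroblasts.

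Definitive endoderm, the germ layer that forms gut, liver and pancreas, arises in the mouse from cells that leave the anterior primitive streak under high Nodal signalling, while neighbouring streak cells form the paraxial mesoderm. The node and the axial mesendoderm come from the same anterior end of the streak. Foxa2 and Foxa1 are pioneer forkhead factors that open chromatin at endodermal genes, Foxa2 being needed also for the node and notochord. Sox17 is a Sox factor required for definitive endoderm. Hhex is a homeodomain factor of the anterior endoderm, and Gsc, goosecoid, is a homeodomain factor of the organizer and axial mesendoderm. Trh encodes the precursor of thyrotropin-releasing hormone and is the only secreted product among the 6. Several of these genes are also used elsewhere: Foxa2, Foxa1, Sox17 and Hhex in extraembryonic endoderm, Sox17 and Hhex in endothelium, and Foxa2 in the floor plate.

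Foxa2 and Trh had the largest differences between induced and uninduced arrays at 48 h, so the windows around their starts are shown. Each runs from 250 bases before to 50 bases after a start in RefSeq (build GRCm38.p6), on the minus strand, written 5′ to 3′. Foxa2 has 3 such windows, of which the most upstream and the most downstream are printed. Capitals mark CANNTG, the E-box letters that basic helix-loop-helix factors bind, which read the same on both strands.
Foxa2, chr2:148046920-148047219: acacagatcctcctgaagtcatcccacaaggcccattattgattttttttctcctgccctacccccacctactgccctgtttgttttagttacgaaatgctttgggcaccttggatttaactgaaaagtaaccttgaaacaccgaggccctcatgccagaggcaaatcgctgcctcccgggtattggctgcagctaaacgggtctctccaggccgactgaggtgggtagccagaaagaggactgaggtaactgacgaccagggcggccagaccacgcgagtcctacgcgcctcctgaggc
Foxa2, chr2:148045415-148045714: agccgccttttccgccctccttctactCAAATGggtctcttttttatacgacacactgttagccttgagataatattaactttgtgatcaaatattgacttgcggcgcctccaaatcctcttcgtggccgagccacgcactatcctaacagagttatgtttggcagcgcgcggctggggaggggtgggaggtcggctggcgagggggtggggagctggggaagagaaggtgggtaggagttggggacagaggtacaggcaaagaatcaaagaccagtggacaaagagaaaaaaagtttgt
Trh, chr6:92244601-92244900: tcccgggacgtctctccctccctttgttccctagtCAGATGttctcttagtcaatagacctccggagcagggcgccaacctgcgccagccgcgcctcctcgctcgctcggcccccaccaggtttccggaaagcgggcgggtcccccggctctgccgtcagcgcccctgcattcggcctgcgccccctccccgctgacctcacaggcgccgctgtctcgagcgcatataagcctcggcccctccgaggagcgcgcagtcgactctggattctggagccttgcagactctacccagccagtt
The downstream Foxa2 window holds CAAATG from its base 28 and the Trh window CAGATG from its base 36, while the upstream and middle Foxa2 windows hold no CANNTG. In all, 4 of the 7 windows found for 5 of the genes hold the motif, as do 72.3% of the 32851 windows of all genes. The others are 1 window each of Foxa1 (chr12:57546062-57546361, 2 matches), Gsc (chr12:104473187-104473486, 1 match) and Hhex (chr19:37434591-37434890, none).

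Values are the deposited array signals on a linear scale. A change is the difference between 2 group means of log2(signal + 32) and stands with ± the standard error of the limma fit; the offset of 32 makes it smaller than the ratio of signals for dim probe sets. A change is said to have passed the test where its p, adjusted by the Benjamini-Hochberg method over all 25881 probe sets, was under 0.05. Across the 18 arrays the medians of log2(signal + 32) lay within 0.0922 of each other, replicates correlated at 0.988 or more, and no 2 arrays held identical values. The Msgn1 probe set had signals of 44.5 to 76.8 in the 9 induced arrays, against 4.69 to 25.2 in the 9 uninduced arrays, with no overlap.

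At 48 h Foxa2, Foxa1, Sox17 and Trh were lower in induced than in uninduced embryoid bodies, and Hhex and Gsc did not pass the test. In counts, 5 of the 7 probe sets were lower and none higher, where 3.94% of all probe sets tested were lower and 5% higher. The median change of the 7 was -0.73, against 0.0016 over all probe sets. At 12 h no member passed in limma, the smallest unadjusted p of the 7 being 0.229 for Trh (0.653% of all probe sets passed, and 2562 probe sets had an unadjusted p under 0.05), and at 24 h Hhex alone passed, being higher in induced arrays (1.86% of all probe sets were higher and 0.475% lower). Because whole embryoid bodies were measured, fewer cells of a type and less RNA per cell cannot be told apart. At 48 h the 3′ to 5′ ratio of the Gapdh control probes was 0.898 to 0.914 in induced and 0.869 to 0.878 in uninduced arrays, without overlap, and that of Actb 1.56 to 1.80 in induced and 1.63 to 1.76 in uninduced arrays, with overlap; the part of RNA quality in the differences was not tested.

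**Figure D1:**
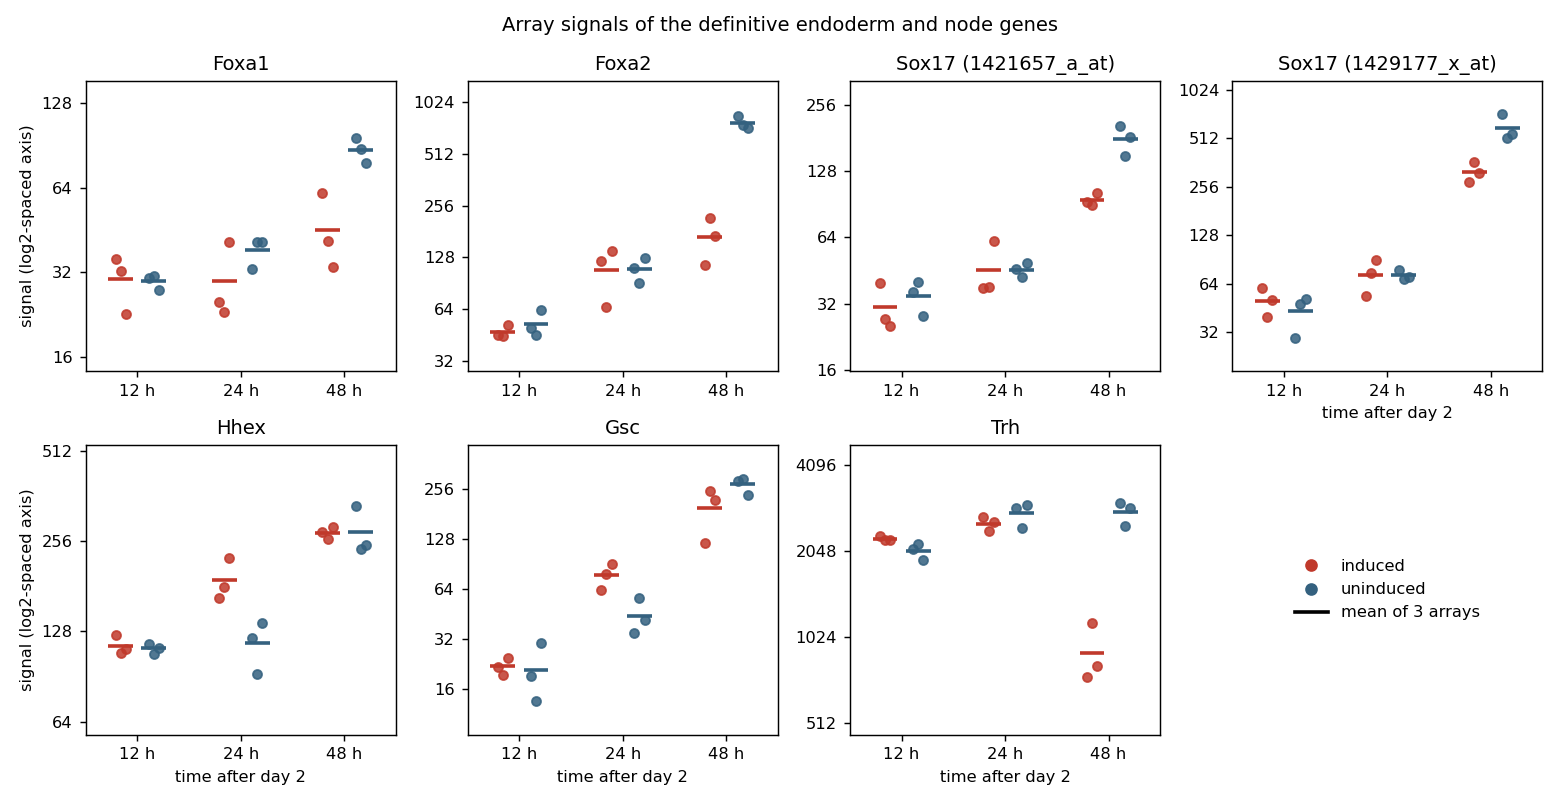
Array signal (vertical axis, log2-spaced, a separate range in each panel) of each of the 7 probe sets at 12, 24 and 48 h after doxycycline was added (horizontal axis); red points are induced arrays, blue points uninduced arrays, and bars the mean of 3 arrays. At 48 h the induced arrays lie below all uninduced arrays for Foxa1, Foxa2, both Sox17 probe sets and Trh, while for Hhex and Gsc the groups overlap.

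Foxa2 (probe set 1422833_at) showed the largest difference. In induced arrays its signal was 45.5, 44.9 and 51.9 at 12 h, 122, 66.0 and 139 at 24 h, and 116, 218 and 169.6 at 48 h. In uninduced arrays it was 49.8, 45.7 and 63.5 at 12 h, 111, 90.6 and 127 at 24 h, and 844, 749 and 724 at 48 h. The groups overlapped at 12 and 24 h, and at 48 h the highest induced array was still far below the lowest uninduced one. The mean at 48 h was 168 ± 50.7 in induced and 772 ± 63.3 in uninduced arrays (SD, n = 3 each), so that the induced mean was 0.217 of the uninduced one. The log2 change was -2.04 ± 0.176, 4.10-fold lower on the scale with the offset (adjusted p = 5.92e-08). It kept its call under all 17 other settings tried, with values between -2.21 and -1.84.

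Foxa2 nevertheless increased in induced embryoid bodies. Between 12 h and 48 h it rose by 1.30 ± 0.176 with induction (adjusted p = 5.04e-06) and by 3.24 ± 0.176 without it (adjusted p = 1.35e-11). The change in induced arrays was thus 40.1% of that in uninduced arrays on the log2 scale, and the gain in mean signal was 16.8%. Over the earlier step, 24 h against 12 h, both conditions rose by similar amounts, 0.79 in induced arrays (adjusted p = 0.00624) and 0.73 in uninduced arrays (adjusted p = 0.0302), and the difference between these changes was 0.06 (95% interval -0.46 to 0.58). The conditions separated over the later step, 48 h against 24 h, where the change was 0.51 in induced arrays (adjusted p = 0.044) and 2.51 in uninduced arrays (adjusted p = 1.64e-09). The change of 0.51 lay near the threshold: with all arrays kept, its call was lost with quantile normalization (0.47, adjusted p = 0.0801), without the filter (adjusted p = 0.078), with an offset of 8 (adjusted p = 0.0504), without the intensity trend (adjusted p = 0.0588) and with only the arrays compared (adjusted p = 0.117). Leaving out arrays, it was 0.27 (adjusted p = 0.302) without replicate 2 of the induced 24 h group, whose signal was the lowest, 0.34 (adjusted p = 0.233) without replicate 2 and 0.49 (adjusted p = 0.112) without replicate 3 of the induced 48 h group. The earlier rise in uninduced arrays also lost its call without the filter (adjusted p = 0.0587), without the intensity trend (adjusted p = 0.052), and without replicate 1 or 2 of the uninduced 12 h group or replicate 1 or 3 of the uninduced 24 h group, with adjusted p of 0.0663 to 0.127 and values of 0.64 to 0.72.

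Foxa1 (1418496_at), the close relative of Foxa2, was dim. Its signal in induced arrays was 35.6, 32.3 and 22.7 at 12 h, 25.1, 23.0 and 41.1 at 24 h, and 61.3, 41.2 and 33.5 at 48 h. Uninduced arrays had 30.4, 31.0 and 27.6 at 12 h, 32.7, 41.0 and 41.1 at 24 h, and 96.1, 88.3 and 78.3 at 48 h. The uninduced 48 h arrays stood above all 15 others, and the other 5 groups formed an unbroken run in which each overlapped the next. At 48 h the mean was 45.3 ± 14.3 in induced and 87.6 ± 8.93 in uninduced arrays (SD, n = 3 each), a log2 change of -0.64 ± 0.133 (adjusted p = 0.00242). From 12 h to 48 h Foxa1 rose by 0.95 ± 0.133 in uninduced arrays (adjusted p = 1.13e-05). In induced arrays the change was 0.30 ± 0.133 and did not pass (adjusted p = 0.0838), and it moved with single arrays of the induced 48 h group, to 0.42 without replicate 3 (adjusted p = 0.0309) and to 0.16 without replicate 1 (adjusted p = 0.413).

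Sox17 was read by 2 probe sets, both lower in induced arrays at 48 h. They parted in the test of a smaller rise given below, which 1429177_x_at passed and 1421657_a_at narrowly missed. The probe set 1421657_a_at had signals in induced arrays of 39.8, 27.2 and 25.3 at 12 h, 37.5, 37.9 and 61.4 at 24 h, and 92.4, 89.7 and 102 at 48 h. Its uninduced signals were 35.9, 39.9 and 28.0 at 12 h, 46.0, 42.3 and 48.6 at 24 h, and 205, 150.03 and 183 at 48 h. The groups overlapped until 24 h and were apart at 48 h. The probe set 1429177_x_at, whose identifier marks probes that can match other transcripts, had 275, 366 and 312 in induced arrays at 48 h, against 727, 518 and 544 in uninduced arrays, again apart. At 12 and 24 h this probe set ranged from 39.6 to 90.1 in induced arrays and from 29.4 to 78.3 in uninduced arrays. The log2 change at 48 h was -0.73 ± 0.128 for 1421657_a_at (adjusted p = 0.000472) and -0.84 ± 0.150 for 1429177_x_at (adjusted p = 0.000562), and both kept their calls under every other setting that could be run.

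Unlike Foxa1, Sox17 passed the test for a rise in both conditions. From 12 h to 48 h the 1421657_a_at signal rose by 1.02 in induced arrays and 1.66 in uninduced arrays, and the 1429177_x_at signal by 2.09 in induced and 3.06 in uninduced arrays; the largest of the 4 adjusted p was 1.88e-06. Induced embryoid bodies thus made 44.2% and 48.2% of the uninduced gain in mean signal, and 61.4% and 68.1% of the change on the log2 scale. Whether Foxa1 and Sox17 differed from each other in this was not tested.

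Hhex (1423319_at) was the member that passed at 24 h. In induced arrays its signal was 124, 109 and 112 at 12 h, 165, 179.8 and 226 at 24 h, and 275, 259 and 286 at 48 h. In uninduced arrays it was 117, 108 and 113 at 12 h, 121, 92.7 and 137 at 24 h, and 336, 241 and 249 at 48 h. At 24 h every induced array was above every uninduced one, whereas at 12 and 48 h the groups overlapped. The log2 change at 24 h was 0.58 ± 0.123 (adjusted p = 0.0104). That call was lost without replicate 2 of the uninduced 24 h group (0.46, adjusted p = 0.0755), without replicate 3 of the induced 24 h group (0.47, adjusted p = 0.0725), and when only the 24 h arrays were fitted (adjusted p = 0.106). At 48 h the change was 0.0048, with a 95% interval of -0.25 to 0.26, so a difference of that size either way was not resolved.

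In both conditions Hhex had risen by a like amount at 48 h against 12 h, 1.06 ± 0.123 in induced arrays (adjusted p = 6.56e-07) and 1.08 ± 0.123 in uninduced arrays (adjusted p = 8.51e-07). In induced arrays part of the rise was there by 24 h, with a change of 0.59 against 12 h (adjusted p = 0.00369) and 0.47 more by 48 h (adjusted p = 0.00925, or 0.0572 without replicate 1 of the induced 24 h group). In uninduced arrays the first step was 0.03 and did not pass (adjusted p = 0.929), and the second was 1.04 (adjusted p = 2.59e-06). The difference of the induction effect between 24 h and 12 h, 0.56 ± 0.174, did not itself pass (adjusted p = 0.413), so the earlier timing is a description of the levels.

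Gsc (1421412_at) did not pass between the conditions at any time. Its signal in induced arrays was 21.6, 19.4 and 24.8 at 12 h, 63.2, 79.0 and 90.2 at 24 h, and 122, 248 and 218 at 48 h. Uninduced arrays had 19.2, 13.6 and 30.3 at 12 h, 34.7, 56.3 and 41.8 at 24 h, and 287, 296 and 236 at 48 h. The induced arrays were all above the uninduced ones at 24 h, and at 48 h the groups overlapped by a narrow margin, with replicate 1 the lowest induced array. Neither difference passed: it was 0.52 ± 0.173 at 24 h (adjusted p = 0.14) and -0.46 ± 0.173 at 48 h (adjusted p = 0.112). The change at 48 h depended on single arrays of the induced 48 h group: it was -0.63 and passed without replicate 2 (adjusted p = 0.0311), and -0.20 without replicate 1 (adjusted p = 0.56). Gsc rose in both conditions from 12 h to 48 h, by 2.03 ± 0.173 in induced arrays (adjusted p = 5.70e-09) and 2.53 ± 0.173 in uninduced arrays (adjusted p = 4.10e-10).

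Trh (1418756_at) followed another course. Its signal in induced arrays was 2311, 2239 and 2237 at 12 h, 2693, 2407 and 2586 at 24 h, and 746, 1151 and 814 at 48 h. In uninduced arrays it was 2084, 2170.2 and 1916 at 12 h, 2909.7, 2479 and 2977 at 24 h, and 3026, 2518 and 2904 at 48 h. The induced 48 h arrays lay far below the 15 others, and the arrays of the 12 h groups, which did not overlap each other, lay below those of the other 3 groups. At 48 h the mean was 904 ± 217 in induced and 2816 ± 265 in uninduced arrays (SD, n = 3 each), a log2 change of -1.63 ± 0.111, 3.09-fold lower (adjusted p = 1.96e-09). Trh therefore went below its own level at 12 h, the earliest time measured. In induced arrays it fell by 1.32 ± 0.111 between 12 h and 48 h (adjusted p = 4.88e-09) and by 1.49 ± 0.111 between 24 h and 48 h (adjusted p = 2.10e-09).

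In uninduced arrays Trh rose by only 0.45 ± 0.111 from 12 h to 48 h (adjusted p = 0.00418). Of this, 0.43 fell in the first step (adjusted p = 0.0418), a call lost without any array of the uninduced 12 h group or without replicate 1 or 3 of the uninduced 24 h group (adjusted p of 0.0821 to 0.152), without the filter (adjusted p = 0.0768), without the intensity trend (adjusted p = 0.0892) and with the replicate number as a block (adjusted p = 0.0609), and the second step was 0.01 (adjusted p = 0.952). Its signal was already at the 97.0 percentile of its array or higher at 12 h in all 6 arrays of that time. The group means of the other members at 12 h ran from 21.0 for Gsc in uninduced arrays to 115 for Hhex in induced arrays.

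Ordered by mean signal over the 6 groups, Foxa1, Foxa2 and both Sox17 probe sets had the uninduced 48 h group at the top and the induced 48 h group next, the 2 apart in every case. Hhex and Gsc had the same 2 groups at the top but overlapping, followed by the induced 24 h group, which stood apart from the uninduced 24 h group beneath it. For Foxa2 and Sox17 the 24 h groups of the 2 conditions were neighbours that overlapped, and the 12 h groups of every member but Trh overlapped. Trh alone had the induced 48 h group at the bottom; its uninduced 48 h, uninduced 24 h and induced 24 h groups overlapped at the top.

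Whether induction reduced the rise was tested directly as the difference of the induction effect between times. Between 48 h and 12 h, 3 of the 7 probe sets were lower (1.65% of all probe sets were) and none was higher (1.89%). They were Foxa2 with -1.94 ± 0.249 (adjusted p = 4.76e-05), Sox17 1429177_x_at with -0.98 ± 0.212 (adjusted p = 0.00862) and Trh with -1.76 ± 0.156 (adjusted p = 5.32e-07), and these calls were kept under all 23 other settings. Foxa2 and Sox17 1429177_x_at rose less with induction. Trh instead fell with it, with changes of -1.32 in induced and 0.45 in uninduced arrays. Foxa1 at -0.65 ± 0.188 (adjusted p = 0.0605) and Sox17 1421657_a_at at -0.64 ± 0.181 (adjusted p = 0.0535) missed the threshold narrowly. Leaving out arrays in turn, the adjusted p ran from 0.0169 without replicate 1 to 0.172 without replicate 3 of the induced 48 h group for Foxa1, which also passed without replicate 3 of the induced 12 h group (adjusted p = 0.0451). For Sox17 1421657_a_at it ran from 0.0281 without replicate 2 to 0.15 without replicate 1 of the uninduced 48 h group. Gsc at -0.50 ± 0.244 (adjusted p = 0.354; -0.23 without replicate 1 of the induced 48 h group) and Hhex at -0.02 ± 0.174 (adjusted p = 0.983; 95% interval -0.38 to 0.34) did not pass.

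As a share of the uninduced gain in mean signal from 12 h to 48 h, induced arrays reached 16.8% for Foxa2, 26.1% for Foxa1, 44.2% and 48.2% for Sox17, 69.1% for Gsc and 97.5% for Hhex. On the log2 scale used in the tests the shares were larger. They were 40.1% for Foxa2, 31.8% for Foxa1, 61.4% and 68.1% for Sox17, 80.4% for Gsc and 98.2% for Hhex. The order of Foxa2 and Foxa1 was thus the other way round on the log2 scale. Without replicate 1 of the induced 48 h group the share of the signal gain was 12.3% for Foxa1, against 20.3% for Foxa2. These 2 genes therefore have no settled order. Leaving out arrays for these shares was chosen after seeing the data. Trh moved the opposite way. The rises of Foxa2, Sox17, Gsc and Hhex in induced arrays passed the test and that of Foxa1 did not.

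**Figure D2:**
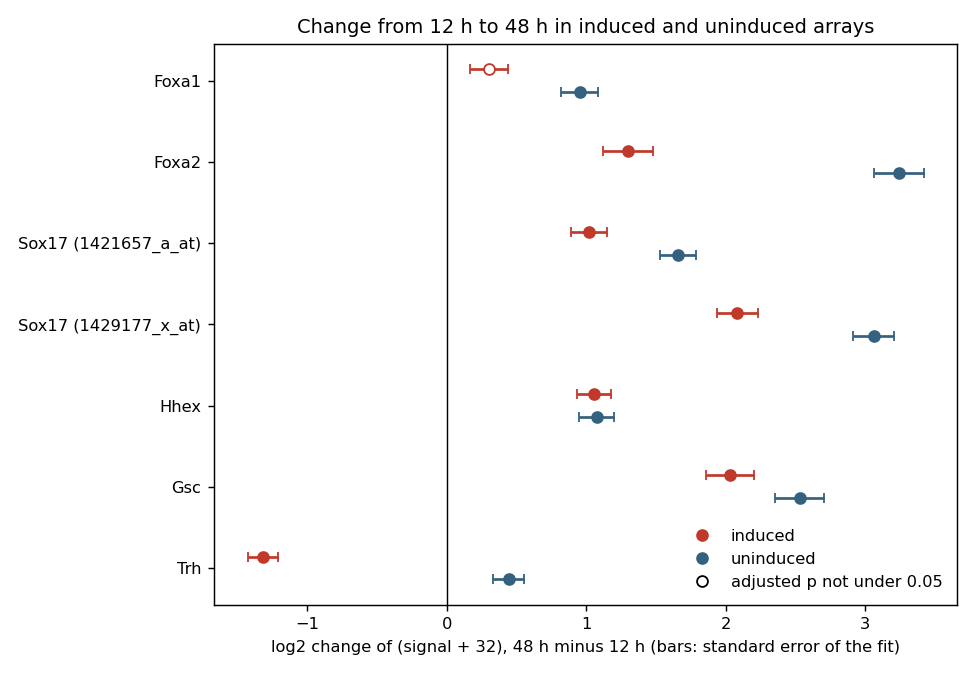
Change of log2(signal + 32) at 48 h against 12 h (horizontal axis) for each probe set, red for induced and blue for uninduced arrays; bars are the standard error of the fit, and hollow points did not pass the test. The induced point lies left of the uninduced one for all but Hhex, where they coincide at 1.06 and 1.08, and for Trh the induced point is at -1.32.

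The later step was tested in the same way. Between 48 h and 24 h the induction effect shifted downward in 5 of the 7 probe sets (0.974% of all probe sets shifted down, and as many up): Foxa2 by -2.001 (adjusted p = 7.61e-05), Trh by -1.51 (adjusted p = 9.14e-06), Gsc by -0.98 (adjusted p = 0.0368), Sox17 1429177_x_at by -0.83 (adjusted p = 0.043) and Sox17 1421657_a_at by -0.72 (adjusted p = 0.0411). Foxa2 and Trh kept their calls under all 23 other settings. The calls were lost in 14 of 22 settings for 1421657_a_at, 16 of 23 for 1429177_x_at and 11 of 23 for Gsc, for example without a filter, where adjusted p was 0.0828 for 1421657_a_at, 0.0835 for 1429177_x_at and 0.0821 for Gsc, and with the replicate number as a block, where it was 0.0517 for 1421657_a_at and 0.0638 for 1429177_x_at. Leaving out single arrays also ended them, with adjusted p up to 0.132 for 1421657_a_at and 0.142 for 1429177_x_at, both without replicate 1 of the uninduced 48 h group, and up to 0.107 for Gsc without replicate 1 of the uninduced 24 h group. Hhex, at -0.58 ± 0.174 (adjusted p = 0.112), passed with the replicate number within each time as a block (adjusted p = 0.0456). Between 24 h and 12 h no member passed in limma, Hhex alone having an unadjusted p under 0.05 (0.0502% of all probe sets passed, and 1760 had an unadjusted p under 0.05).

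By condition, the later step was a rise for all members but Trh in uninduced arrays, with 6 of 7 probe sets higher where 10.8% of all were higher and 8.55% lower, and over the whole course all 7 were higher (15.8% of all were higher and 11.5% lower). The first step had 2 of 7 higher in uninduced arrays, Foxa2 and Trh (1.33% of all were higher and 1.09% lower). In induced arrays 3 of 7 were higher at 24 h against 12 h, Foxa2, Hhex and Gsc (6.2% of all were higher and 4.01% lower). At 48 h against 24 h 5 of 7 were higher (10.9% of all) and Trh was lower (9.45%), and at 48 h against 12 h 5 were higher (19.8%) and Trh lower (15%). The first step of Sox17 did not pass in either condition.

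The members' levels were also described against each other. Over the 18 arrays, which share the 6 groups and so are not independent of them, log2(signal + 32) of the 2 Sox17 probe sets correlated at 0.971, Foxa2 with Sox17 at 0.941 and 0.909, Foxa1 with Foxa2 at 0.882, and Hhex with Gsc at 0.916. Foxa1 and Hhex were less alike, at 0.66. Trh correlated with the others between -0.367 and 0.128. The named genes most like each member over the same arrays, among 13416 compared, were Slc39a8 (0.969), Cer1 (0.949) and Cadps2 (0.948) for Foxa2. For Foxa1 they were Vwa5a (0.917), Klhl4 (0.911) and Cadps2 (0.904). For Sox17, read here by 1429177_x_at alone, they were Tgfbr3 (0.983), Frzb (0.969) and Dgkk (0.968). They were Sox11 (0.968), Sp8 (0.962) and Zfp362 (0.96) for Hhex, Hdac5 (0.977), Rtn3 (0.977) and Tgfbr3 (0.976) for Gsc, and Grb7 (0.935), H2-Q2 (0.928) and Kcnk1 (0.926) for Trh.

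Other genes of the definitive endoderm went both ways at 48 h. Of 22 tested, 5 were lower and 5 higher, with a median change of -0.05 where the median of all genes was 0.0077. Over all probe sets 3.94% were lower and 5% higher at 48 h, which is the background for the lists below too. Cer1, a secreted antagonist of Nodal, Bmp and Wnt, averaged 94.7 in induced and 364 in uninduced arrays, a change of -1.64 ± 0.225 (adjusted p = 2.70e-05), and the homeodomain factor Otx2 averaged 1231 in induced and 2549 in uninduced arrays, a change of -1.05 ± 0.0922 (adjusted p = 7.16e-08). The tight junction gene Cldn6 changed by -0.999 (adjusted p = 1.37e-05). Otx2 and Cldn6 were already well above Cer1 at 12 h. Otx2 then averaged 2641 in induced and 2687 in uninduced arrays, and Cldn6 314 in induced and 370 in uninduced arrays. Cer1 averaged 55.2 in induced and 45.7 in uninduced arrays at that time. Cxcr4, the chemokine receptor used to sort endoderm and also made by mesoderm, was higher, at 409.5 in induced and 132 in uninduced arrays, a change of 1.44 ± 0.126 (adjusted p = 6.78e-08). Higher means in induced arrays were also found for Gata4 (124 in induced and 50.4 in uninduced arrays), Gata6 (475 and 296) and Krt19 (359 and 211).

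Earlier, 8 of the 22 were higher in induced arrays at 24 h and none lower (1.86% of all probe sets were higher and 0.475% lower). They included the streak and mesendoderm factors Eomes (1.55 ± 0.166, adjusted p = 4.50e-06), Lhx1 (1.46 ± 0.167, adjusted p = 1.14e-05) and Mixl1 (1.19 ± 0.190, adjusted p = 0.000714), all of which also rose by 3.30 or more in uninduced arrays from 12 h to 48 h. None of these 3 passed at 48 h, when Eomes averaged 2685 in induced and 2779.5 in uninduced arrays. In the uninduced course from 12 h to 48 h 15 of the 22 rose and 1 fell (15.8% of all probe sets rose and 11.5% fell). The induction effect differed between 48 h and 12 h in 7 of the 22, with 5 lower and 2 higher. Of all probe sets 1.65% were lower in this comparison and 1.89% higher.

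Among 11 tested node and notochord genes, 4 were lower and 1 higher at 48 h, though without the filter 2 were lower. Foxj1, the forkhead factor of motile cilia, averaged 9.55 in induced arrays, below the filter level of 13.3, and 43.6 in uninduced arrays; the change of -0.86 ± 0.104 (adjusted p = 4.95e-06) is thus against a group too dim for its size to be exact. Lefty1, a Nodal antagonist, changed by -1.03 ± 0.136 (adjusted p = 1.74e-05) and Chrd, a Bmp antagonist, by -0.55 (adjusted p = 0.0266), while Lefty2 was higher by 0.42 (adjusted p = 0.0102), although with only the arrays compared 0 genes of the list were called higher. Of 10 anterior mesendoderm genes 4 were lower and 1 higher, among them Fzd5, a Wnt receptor, at -0.93 ± 0.108 (adjusted p = 3.24e-06) and the Wnt antagonist Dkk1 at 0.67 ± 0.134 (adjusted p = 0.00165); Cer1, Otx2 and Dkk1 stand in this list too. Of 17 Nodal pathway genes 4 (2 without the filter or without the intensity trend) were lower and 3 higher. Cer1 and Lefty1 stand in this list too, among those lower. The Nodal effector Foxh1 was at the top of those higher, at 0.66 ± 0.0833 (adjusted p = 1.03e-05), a smaller change than that of Cer1 or Lefty1. Nodal itself averaged 584 in induced and 768 in uninduced arrays at 12 h, and 936 and 1201 at 24 h. At 48 h its means were 796 in induced and 1038 in uninduced arrays. Nog and Mnx1 were too dim to test, with highest signals of 9.77 and 16.4.

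**Figure D3:**
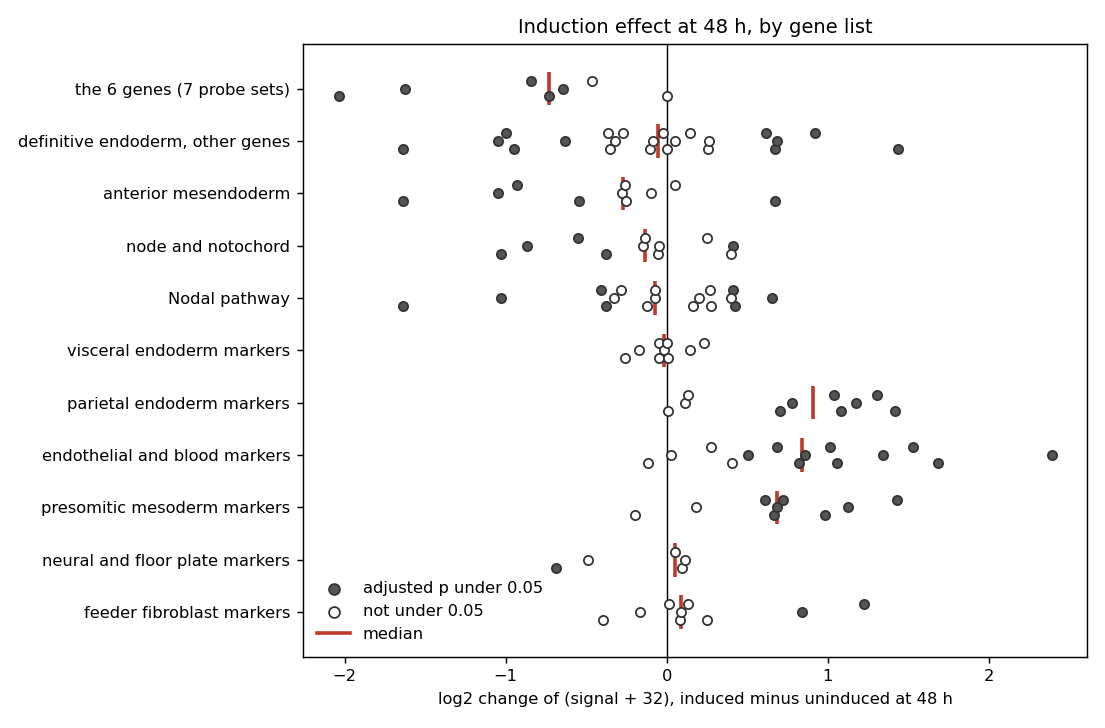
Change of log2(signal + 32) in induced minus uninduced arrays at 48 h (horizontal axis) for each tested gene of each list; filled points passed the test and red bars mark the median. The 7 probe sets have a median of -0.73, the other definitive endoderm genes spread to both sides of 0, and parietal endoderm, endothelial and presomitic genes, Msgn1 among them, lie mostly to the right.

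Because several members are also expressed outside the definitive endoderm, markers of those tissues were read beside them. Of 9 visceral endoderm markers tested at 48 h, 0 passed in limma, and 1, Rhox5 at 0.23 ± 0.0918, had an unadjusted p under 0.05. The signal summed over 12 markers was 440 to 465 in induced and 447 to 465 in uninduced arrays. Rhox5 was the brightest of the 12, averaging 211 in induced and 175 in uninduced arrays. At 12 h it averaged 1095 in induced and 1063 in uninduced arrays, so the fall of the sums over time largely followed this gene. At 48 h the means of 4 of the 12 in induced and 6 in uninduced arrays reached the filter level. The secreted visceral endoderm products Afp, Ttr and Apoa1 were dim in all 18 arrays, with highest signals of 7.78, 14.3 and 23.4. Parietal endoderm markers were higher in induced arrays, 7 of 10 and none lower, with sums of 4085 to 4339 in induced and 2252 to 2682 in uninduced arrays. They were led by the endoderm and endothelial factor Sox7 at 1.42 ± 0.120 (adjusted p = 4.42e-08) and the receptor Pdgfra at 1.30 ± 0.142 (adjusted p = 1.32e-06), which mesoderm also expresses. Most of the difference in sums lay in Sparc (1146 in induced and 691 in uninduced arrays), Col4a1 (764 and 347) and Pdgfra (549 and 206). Lamb1 (989 and 904) and Dab2 (93.5 and 93.1) differed little.

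In induced arrays 9 of 14 endothelial and blood markers rose from 12 h to 48 h and 1 fell, and Sox17 rose too. Of all probe sets 19.8% rose and 15% fell over that course. Between conditions at 48 h, where Sox17 was lower in induced arrays, 10 of the 14 were higher and none lower. Their sums at 48 h were 2309 to 2562 in induced and 769 to 1036 in uninduced arrays. Kdr, the VEGF receptor, changed by 2.39 ± 0.147 (adjusted p = 4.41e-10) and the ETS factor Fli1 by 1.69 ± 0.139 (adjusted p = 2.81e-08). Of 8 presomitic mesoderm markers tested beside Msgn1, which doxycycline switches on and which is left out here, 6 were higher and none lower, led by the Notch ligand Dll3 at 1.43 ± 0.0817 (adjusted p = 2.11e-10). Of 5 neural and floor plate markers Ntn1 was lower, at -0.69 ± 0.150 (adjusted p = 0.00389), and the sums over 8 markers were 300.0 to 415 in induced and 471 to 557 in uninduced arrays. Beside Ntn1, at 131 in induced and 231 in uninduced arrays, the sums held Nes at 148 in induced and 216 in uninduced arrays (adjusted p = 0.112), while Pax6, Hes5 and Zic1 had changes of 0.05 to 0.11 that did not pass, and the median of the list was 0.05. Feeder fibroblast markers Fbln2 at 1.23 ± 0.152 (adjusted p = 7.87e-06) and Col1a2 at 0.84 ± 0.129 (adjusted p = 9.86e-05) were higher, none of 9 was lower, and sums were 854 to 1005 in induced and 580 to 720 in uninduced arrays. Fbln2, at 246 in induced and 84.8 in uninduced arrays, and Col1a2, at 225 in induced and 112 in uninduced arrays, held most of the difference in sums; the other 7 did not pass, Dcn for one averaging 35.4 in induced and 56.4 in uninduced arrays, and the median of the list was 0.09. The part of these tissues in the members' differences was not tested.

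**Figure D4:**
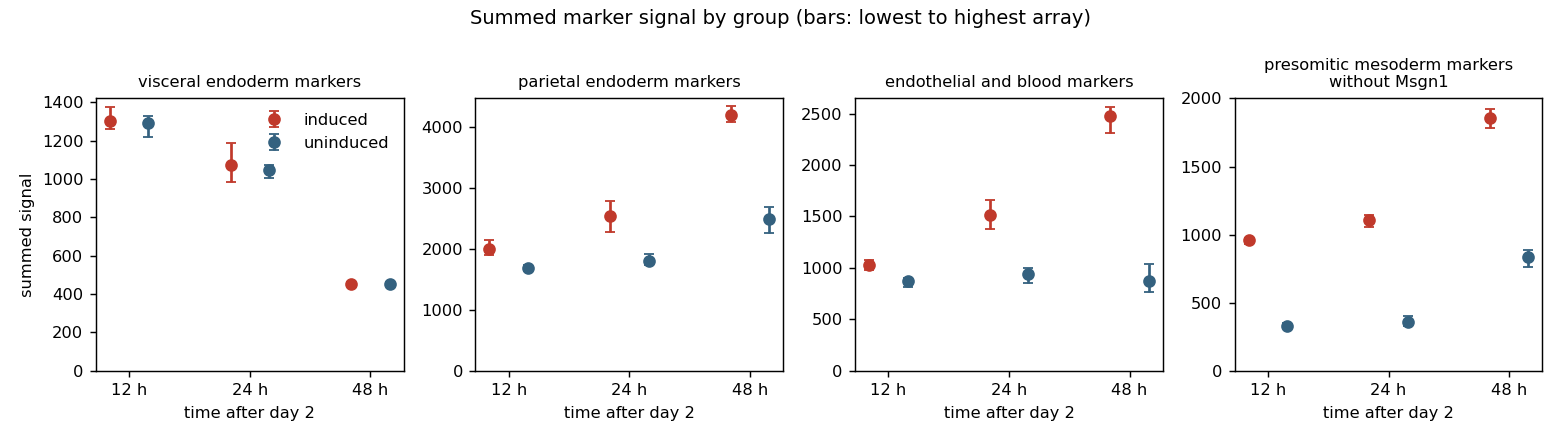
Signal summed over the markers of 4 tissues, presomitic mesoderm without Msgn1 (vertical axis, from 0) at 12, 24 and 48 h (horizontal axis) in induced (red) and uninduced (blue) arrays; points are means and bars run from the lowest to the highest of 3 arrays. Visceral endoderm sums, whose brightest gene is Rhox5, overlap at 48 h, while parietal endoderm, endothelial and presomitic sums are higher in induced arrays.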

How the data were processed

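RNA from mouse embryoid bodies was hybridised to 18 single-channel Affymetrix arrays. Per the labels' protocols, the input was 100 ng of total RNA (integrity number over 9), and biotin was built in by 3' in vitro transcription. The deposited values are signal intensity on a linear scale for 45101 probe sets, and the submitters' processing notes name GCOS as software. Which signal algorithm and target were used is not given in the sources used here. The 2% trimmed mean of the deposited intensity was 150 on every array, so no further normalization was added. The number of arrays limits the precision.

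Probe sets were named from the platform annotation: 34945 carried 1 gene symbol (34741 matched by Entrez identifier), 932 several and 9160 none, beside 64 controls. Kept were probe sets with a group mean of log2(signal + 32) at or over the 40th percentile (a signal of 13.3) in 1 group or more, which left 25881 probe sets of 14273 genes. Groups and replicate numbers came from the sample titles. Limma 3.58.1 in R 4.3.3 fitted 1 mean per group (12 residual degrees of freedom) with variances moderated along intensity. The 2-sided p-values were adjusted by the Benjamini-Hochberg method over all kept probe sets. The steps were tested on simulated data. For a list, a gene was read by its kept probe set of highest mean. Up to 4 genes with the largest called change in a contrast were named, or up to 2 with values only where none was called. Some further list genes were given outside this rule, chosen after seeing the data. Likeness named the 3 genes of highest Pearson correlation. The members and the 10 lists were chosen with earlier results of these data known. Python 3.11.15 with matplotlib 3.10.9 drew the figures.

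Replicate numbers were checked as pairs by correlating deviations from group means within a time. Same-numbered arrays correlated at 0.2, 0.123 and 0.446 at 24 h, so the numbers met the rule for pairs there (every same-numbered pair over 0.1), although induced replicate 1 correlated as well with uninduced replicate 2 (0.209). The reported fit has no block, and the pairing entered as an alternative; at 12 h the values were 0.0133, 0.0734 and -0.0699, and at 48 h -0.0967, -0.031 and 0.124. Alternatives were quantile normalization, other filters and offsets, 1 probe set per gene, other variance moderation, the compared arrays alone, replicate blocks, and leaving out each array. Leaving out arrays for the shares of the signal gain, and Msgn1 from the presomitic markers, were added after seeing the data.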

Additional observations from a re-analysis of the deposited data

Results flagged for a closer look

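The induction effect, induced minus uninduced on the log2 scale, differed between times by a test of the difference itself for 8 results. Between 48 h and 24 h the differences were -2.001 for Foxa2, -1.51 for Trh, -0.98 for Gsc, -0.83 for Sox17 1429177_x_at and -0.72 for Sox17 1421657_a_at. Between 48 h and 12 h they were -1.94 for Foxa2, -1.76 for Trh and -0.98 for Sox17 1429177_x_at. At 48 h the 3 induced arrays lay below the 3 uninduced arrays for each of these probe sets except Gsc, whose groups overlapped.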

How the results depend on the processing

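Of 1500 values of 84 member results under other settings, 1379 kept direction and side of the threshold, 67 lost a call, 17 gained one and 37 changed sign, none of those being called; 36 of 44 calls held in all settings. The lower levels of Foxa1, Foxa2, Sox17 and Trh at 48 h were among them. Fitting only the arrays compared gave 264 probe sets and 0 members at 24 h in induced against uninduced arrays and 127 probe sets for uninduced 24 h against 12 h; that contrast called 0 members without a filter or without the trend and 1 with the replicate block. With 1 probe set per gene, which tests fewer, 5949 were called for induced 48 h against 12 h. For the effect at 24 h minus 12 h, 8 were called without the trend and 25 with the replicate block within time. For the effect at 48 h minus 24 h, members called were 3 with quantile normalization, without the trend or with the replicate block, and 2 without a filter, with an offset of 8 or with only the arrays compared. For 48 h minus 12 h they were 5 with the 60th percentile filter, an offset of 64 or the replicate block within time. The replicate block changed no other member count. Quantile normalization turned Foxa1 at 12 h to -0.014 and Hhex at 48 h to -0.00050. The causes were not tested.

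Leaving out arrays in turn, probe sets called for induced against uninduced ran from 88 to 140 at 12 h and from 333 to 518 at 24 h (members 0 to 1). They ran from 186 to 1043 for uninduced 24 h against 12 h (members 0 to 2), from 1360 to 2793 for induced 24 h against 12 h and from 6 to 23 for the effect at 24 h minus 12 h. Members for the effect at 48 h minus 24 h ran from 2 to 5. Changes that crossed 0, none of them called, ran as follows. At 12 h in induced minus uninduced arrays they ran from -0.056 to 0.097 for Foxa1, -0.0040 to 0.23 for Sox17 1429177_x_at, -0.023 to 0.054 for Hhex and -0.067 to 0.16 for Gsc. At 24 h they ran from -0.20 to 0.21 for Foxa2, -0.16 to 0.058 for Sox17 1421657_a_at and -0.13 to 0.13 for Sox17 1429177_x_at, and at 48 h from -0.073 to 0.14 for Hhex. For uninduced arrays they ran from -0.061 to 0.16 for Hhex at 24 h against 12 h and -0.067 to 0.092 for Trh at 48 h against 24 h, and for induced arrays from -0.15 to 0.061 for Foxa1 at 24 h against 12 h. Differences of the effect ran from -0.10 to 0.30 for Foxa2 and -0.066 to 0.18 for Sox17 1421657_a_at at 24 h minus 12 h, and from -0.097 to 0.12 for Hhex at 48 h minus 12 h.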
